A study of Mus musculus with 8 samples.

Results

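Lymphocytes find their place in the body through receptors that sense chemokines and the lipid sphingosine 1-phosphate, and DNA methylation was examined here at 9 genes of that system, namely Ccr7, S1pr1, Klf2, Cxcr4, S1pr4, Cxcr5, Ccr6, Ccr9 and Itgae. The 9 genes were taken by name, out of 21755 protein-coding genes annotated on the autosomes and X, and each locus was its gene body with 10 kb on either side. Of the 9, 5 were set down as shared by B and T cells (Ccr7, S1pr1, Klf2, Cxcr4 and S1pr4), 2 as receptors of B follicles (Cxcr5 and Ccr6) and 2 as genes of T cells (Ccr9 and Itgae). The grouping follows textbook roles, and it was made with earlier results of these data known. The 9 loci hold 5276 CpGs of the reference genome, of which 4848 (91.9%) were listed in all libraries. Coverage of CpGs was lowest at Ccr9, with 762 of 985 CpGs.

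The cells were CD4+ T cells in the naive state and CD43- B cells at rest, from spleens of C57BL/6J mice, with no treatment and no altered allele, and every mouse was between 6 and 8 weeks old. Each cell type was taken from females and from males, which makes 4 groups. The labels give 2 samples to each group, and the study's methods state that a replicate pooled cells of several mice. Each group has 1 file of values, and whether it combines both samples is not stated, so each group is treated as 1 library and the 4 libraries carry every comparison. Where 4 levels stand in a row below, they belong to female B, then female T, then male B and lastly male T cells. T cells were sorted as CD44 low and CD25-, among other markers, after depletion of other lineages. The method was whole-genome oxidative bisulfite sequencing, in which cytosines still read as C after oxidation and bisulfite are 5-methylcytosine, and a methylation level is the share of such reads at a CpG or over a region. A level of a cell population between 0 and 100% can come from a mixture of cells, and the mixture cannot be told apart from partial methylation of each cell. Coordinates count from 1 on GRCm38 (mm10), and genes follow GENCODE M21.

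The libraries held between 280919817 and 354634149 reads at CpGs, with a median of 14 to 17 reads per listed CpG on the autosomes, the male B cell library being the shallowest. In these and all later sums a read counts at each CpG that it covers. The identity of the libraries was read from marker promoters, each 1 kb on either side of a gene start. Of 6 B cell markers, 5 were called lower in B cells, and all 8 T cell markers were called lower in T cells. The promoters of the T cell receptor complex genes Cd3d, Cd3e and Cd3g lay at 1.23% to 2.76% in the T cell libraries and at 84.9% to 94.9% in the B cell libraries. The 2 CD8 markers were also called lower in T cells, Cd8b1 at 29.2% and 29.7% against 88.5% and 91.6% in B cells, although the depletion removed CD8+ cells. None of the 2 NK cell, 4 myeloid and 2 plasma cell markers was called by edgeR, 4 of these 8 having an unadjusted p under 0.05 and 0 being called by limma. Of these 8, Itgam (13.1 points, adjusted p = 0.0022) and Lyz2 (-16.8 points, adjusted p = 9.0e-04) passed the adjusted p, and so did the marker of regulatory T cells, Foxp3 on the X chromosome, at 56.3%, 44.5%, 35.2% and 8.49% (19.3 points, adjusted p = 1.0e-07, not called). The part of such cells in the differences below was not tested.

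Chemokine receptors are G protein-coupled receptors that steer a cell along a gradient of their ligand. Ccr7 binds Ccl19 and Ccl21 and draws naive lymphocytes into lymph nodes and the T zone of the spleen, whereas Cxcr5 binds Cxcl13 and draws B cells into follicles. Sphingosine 1-phosphate receptor S1pr1 lets lymphocytes leave lymphoid organs, and the zinc finger transcription factor Klf2 maintains expression of S1pr1 in resting lymphocytes. Ccr9 senses Ccl25 of the thymus and small intestine, and Itgae encodes the alpha E integrin chain CD103, which binds E-cadherin on epithelium. Methylation of CpGs at promoters and enhancers is commonly low where these elements are active, and promoters rich in CpGs are commonly unmethylated whether or not the gene is transcribed.

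The sequences below are the 300-base stretches with the largest summed difference between B and T cells inside the most different 1 kb tile of a locus, shown so that the single CpGs behind the differences can be seen. They are given for the 5 loci with the largest tile differences for which such a stretch lay outside untranslated exons. Bases are from the plus strand of GRCm38, 5′ to 3′, in lower case, and the capitals mark CpGs. Ccr7 lies at chr11:99151325-99151624, in an intron of a gene on the minus strand. Ccr9 lies at chr9:123767673-123767972, just inside the transcript that starts at position 123767211. Cxcr5 lies at chr9:44563013-44563312, upstream of the gene start at position 44561877 on the minus strand. Klf2 lies at chr8:72323175-72323474, past the end of the gene at position 72321656. Ccr6 lies at chr17:8243486-8243785, just before a transcript start at position 8243811.
Ccr7: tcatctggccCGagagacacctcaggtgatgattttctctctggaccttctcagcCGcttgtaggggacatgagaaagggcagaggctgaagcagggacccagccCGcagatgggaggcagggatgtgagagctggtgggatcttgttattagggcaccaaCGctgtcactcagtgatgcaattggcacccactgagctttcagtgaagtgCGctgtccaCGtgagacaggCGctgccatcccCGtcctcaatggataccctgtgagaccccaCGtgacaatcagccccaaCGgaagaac
Ccr9: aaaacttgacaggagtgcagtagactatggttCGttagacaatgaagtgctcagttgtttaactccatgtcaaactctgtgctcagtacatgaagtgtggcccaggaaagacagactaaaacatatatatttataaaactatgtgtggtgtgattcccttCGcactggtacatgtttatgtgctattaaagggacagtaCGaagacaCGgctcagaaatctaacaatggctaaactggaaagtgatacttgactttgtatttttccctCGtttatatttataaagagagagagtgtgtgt
Cxcr5: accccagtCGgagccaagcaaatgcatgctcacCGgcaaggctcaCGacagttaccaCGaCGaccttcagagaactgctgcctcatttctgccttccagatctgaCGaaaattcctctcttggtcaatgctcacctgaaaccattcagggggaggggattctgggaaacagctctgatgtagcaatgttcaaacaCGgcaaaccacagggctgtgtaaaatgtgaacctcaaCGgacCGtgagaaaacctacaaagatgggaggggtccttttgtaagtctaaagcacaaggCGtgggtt
Klf2: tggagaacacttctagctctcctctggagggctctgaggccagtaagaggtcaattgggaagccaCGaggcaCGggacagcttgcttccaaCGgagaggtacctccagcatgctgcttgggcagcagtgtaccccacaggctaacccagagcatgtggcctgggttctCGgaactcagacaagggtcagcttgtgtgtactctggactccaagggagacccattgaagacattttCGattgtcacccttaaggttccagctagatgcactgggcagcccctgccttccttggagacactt
Ccr6: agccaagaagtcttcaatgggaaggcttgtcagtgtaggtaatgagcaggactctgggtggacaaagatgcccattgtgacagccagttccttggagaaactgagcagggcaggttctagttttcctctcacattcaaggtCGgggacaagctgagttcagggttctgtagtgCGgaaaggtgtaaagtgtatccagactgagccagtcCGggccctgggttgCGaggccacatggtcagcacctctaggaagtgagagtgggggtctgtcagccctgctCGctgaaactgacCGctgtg

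All CpGs of the 5 stretches were measured in all 4 libraries. The 10 CpGs of the Ccr7 stretch together held 87.9% methylated reads in female B cells and 92.4% in male B cells. In female T cells 0 of 209 reads, summed over the 10 CpGs, were methylated there. That allows a level of up to 1.44% if these reads are independent. In male T cells the level was 0.429%. Read singly, 9 of the 10 CpGs showed no methylated read in either T cell library, at 15 to 28 reads per CpG, while single CpGs of B cells ranged from 73.3% to 100% in females and from 55.6% to 100% in males. These B cell levels rest on 10 to 19 reads per CpG in females and 7 to 10 in males. The T cell and B cell libraries did not overlap at any CpG of the stretch, which was picked for its large difference.

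The 5 CpGs of the Ccr9 stretch held 90.1%, 14.1%, 97.1% and 12.5% methylated reads. The third of them was the least different, at 100% in both B cell libraries and at 45.5% (11 reads) and 40.0% (5 reads) in female and male T cells. The 10 CpGs of the Cxcr5 stretch stood at 76.1% and 81.8% in B cells, against 3.15% and 1.16% in T cells, and 6 of them had no methylated read in either T cell library. The 5 CpGs of the Klf2 stretch were at 67.2% and 65.5% in B cells and at 13.6% and 4.76% in T cells. Only the Ccr6 stretch among these 5 ran the other way, with 24.8% and 30.4% in B cells against 89.1% and 91.5% in T cells, and the fifth CpG was at 0% in female B cells (0 of 23 reads) and 73.9% in female T cells.

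**Figure D1:**
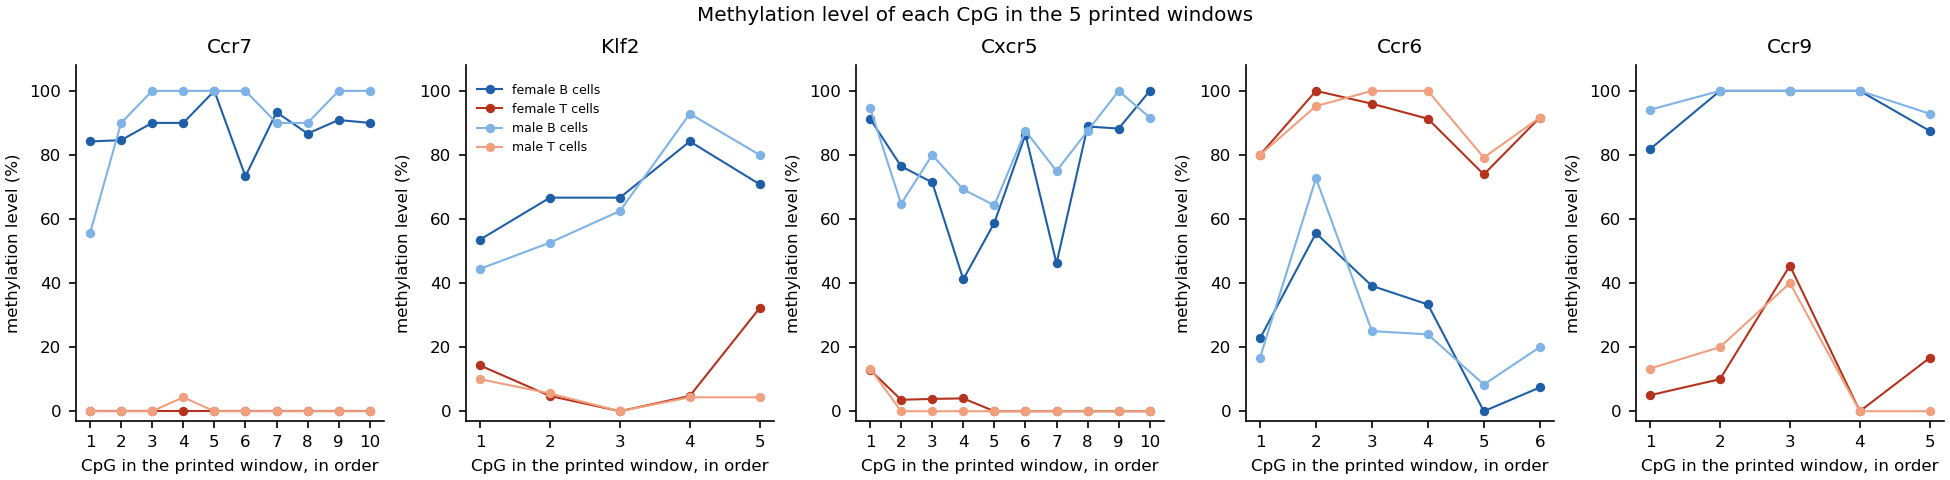
Methylation level (%) of each CpG, in order along the 5 printed stretches, with 1 line per library. T cells lie below B cells at every CpG of the Ccr7, Ccr9, Cxcr5 and Klf2 stretches, and above them at every CpG of the Ccr6 stretch. The stretches were picked for the size of their differences.

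To cover the loci without choosing places, reads were summed over 1 kb tiles with at least 5 CpGs and 20 reads in every library. A tile was called at an adjusted p under 0.05 where the cell types differed on average by 20 percentage points or more, and every difference below is the mean of the B cell levels minus the mean of the T cell levels, in percentage points. Of 350 tiles in the 9 loci, 84 (24.0%) were called between B and T cells, where 3.17% of all 1530528 tiles of the genome were called. Methylation was higher in B cells in 68 of the called tiles and higher in T cells in 16, where 2.36% and 0.812% of all tiles were called in these directions. All 84 had the same sign in females and in males, as did 48478 of all 48483 called tiles of the genome. Of the 84, 69 reached 20 points in each sex, as did 38806 of the 48483. The median difference was 3.58 points over the 350 tiles and 0.788 points over all tiles. The called tile nearest the 20-point limit lay in Ccr9, with 20.2 points, and the tile nearest below it among those that passed the adjusted p lay at the start of Itgae, with 19.8 points.

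By group of genes the called tiles were as follows. In the 5 shared genes 36 of 115 tiles were called, 34 of them higher in B cells, and the median tile differed by 7.67 points. The 2 genes of B follicles had 24 of 98 tiles called, 10 higher in B cells and 14 higher in T cells, with a median of 1.03 points. In the 2 T cell genes 24 of 137 tiles were called, every one of them higher in B cells, with a median of 3.26 points. The shared genes were not alike, since Ccr7, S1pr1 and Klf2 held 34 of their 36 called tiles and Cxcr4 and S1pr4 held 1 each. Tiles of 1 locus are neighbours on a chromosome and are not independent of each other.

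**Figure D2:**
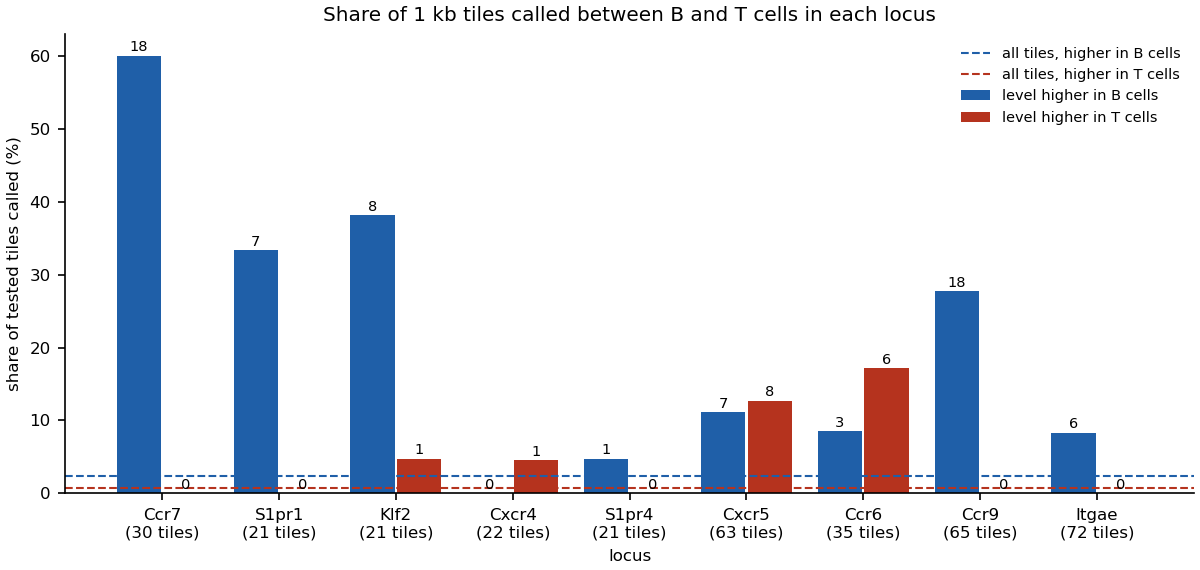
Share (%) of tested 1 kb tiles called between B and T cells in each locus, split by direction, with the number of called tiles above each bar and dashed lines at the shares over all tiles of the genome (2.36% higher in B cells, 0.812% higher in T cells). Ccr7 has the highest bar, 18 of 30 tiles, and Ccr6 and Cxcr5 are the loci with more than 1 tile higher in T cells.

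Ccr7 differed the most as a locus. Over its 424 CpGs (chr11:99134196-99165077) the level was 65.1% and 64.3% in female and male B cells, against 28.2% and 26.9% in the T cells. The difference of 37.1 points had an adjusted p = 1.9e-34 and ranked 11 by size among 21611 loci. It was the 1 locus of the 9 that was called, where 0.43% of all loci were called. By adjusted p alone 7 of the 9 loci passed, as did 39.8% of all loci, and Cxcr4 and Cxcr5 did not.

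The start of Ccr7 itself (position 99155077, minus strand) was low in both cell types. Its promoter, with 22 CpGs, stood at 15.7% in the B cells of either sex (95% Wilson intervals 12.3 to 19.9 in females and 12.0 to 20.1 in males) and, in T cells, at 2.21% (1.16 to 4.14) in females and 1.04% (0.405 to 2.64) in males. That is a difference of 14.1 points (adjusted p = 1.8e-19) under the 20-point limit. In the gene body 9 of 12 tiles were called. The tile at 99151001, in an intron, stood at 82.4%, 0.308%, 88.4% and 1.62% (difference 84.4 points, adjusted p = 1.3e-121). Next to it the tile at 99152001 stood at 85.4% and 81.0% in the B cell libraries and at 0% in both T cell libraries. These zeros allow levels of up to 1.62% and 1.64% in female and male T cells. The tile at 99146001, in an exon, stood at 82.4%, 6.19%, 89.3% and 4.63% (difference 80.4 points, adjusted p = 2.8e-96).

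The unmethylated stretch at the start was followed outward until 3 CpGs in a row together held 50% methylated reads. By this rule parts of such a stretch can be partly methylated. In B cells it measured 1430 bases in each sex, and in T cells 10414 bases in females and 10486 bases in males. It reached 993 bases into the gene in B cells and 9286 and 9358 bases in T cells, which covers most of the transcribed length. The B cell body was not methylated throughout, and the tiles at 99147001 and 99148001 stood at 27.3% to 36.4% in B cells and at 0.413% or less in T cells. Past the end of the gene 7 of 10 tiles were called, among them 99140001 with 94.6% and 96.5% in B cells against 64.9% and 58.4% in T cells. No other annotated gene overlaps the Ccr7 locus.

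**Figure D3:**
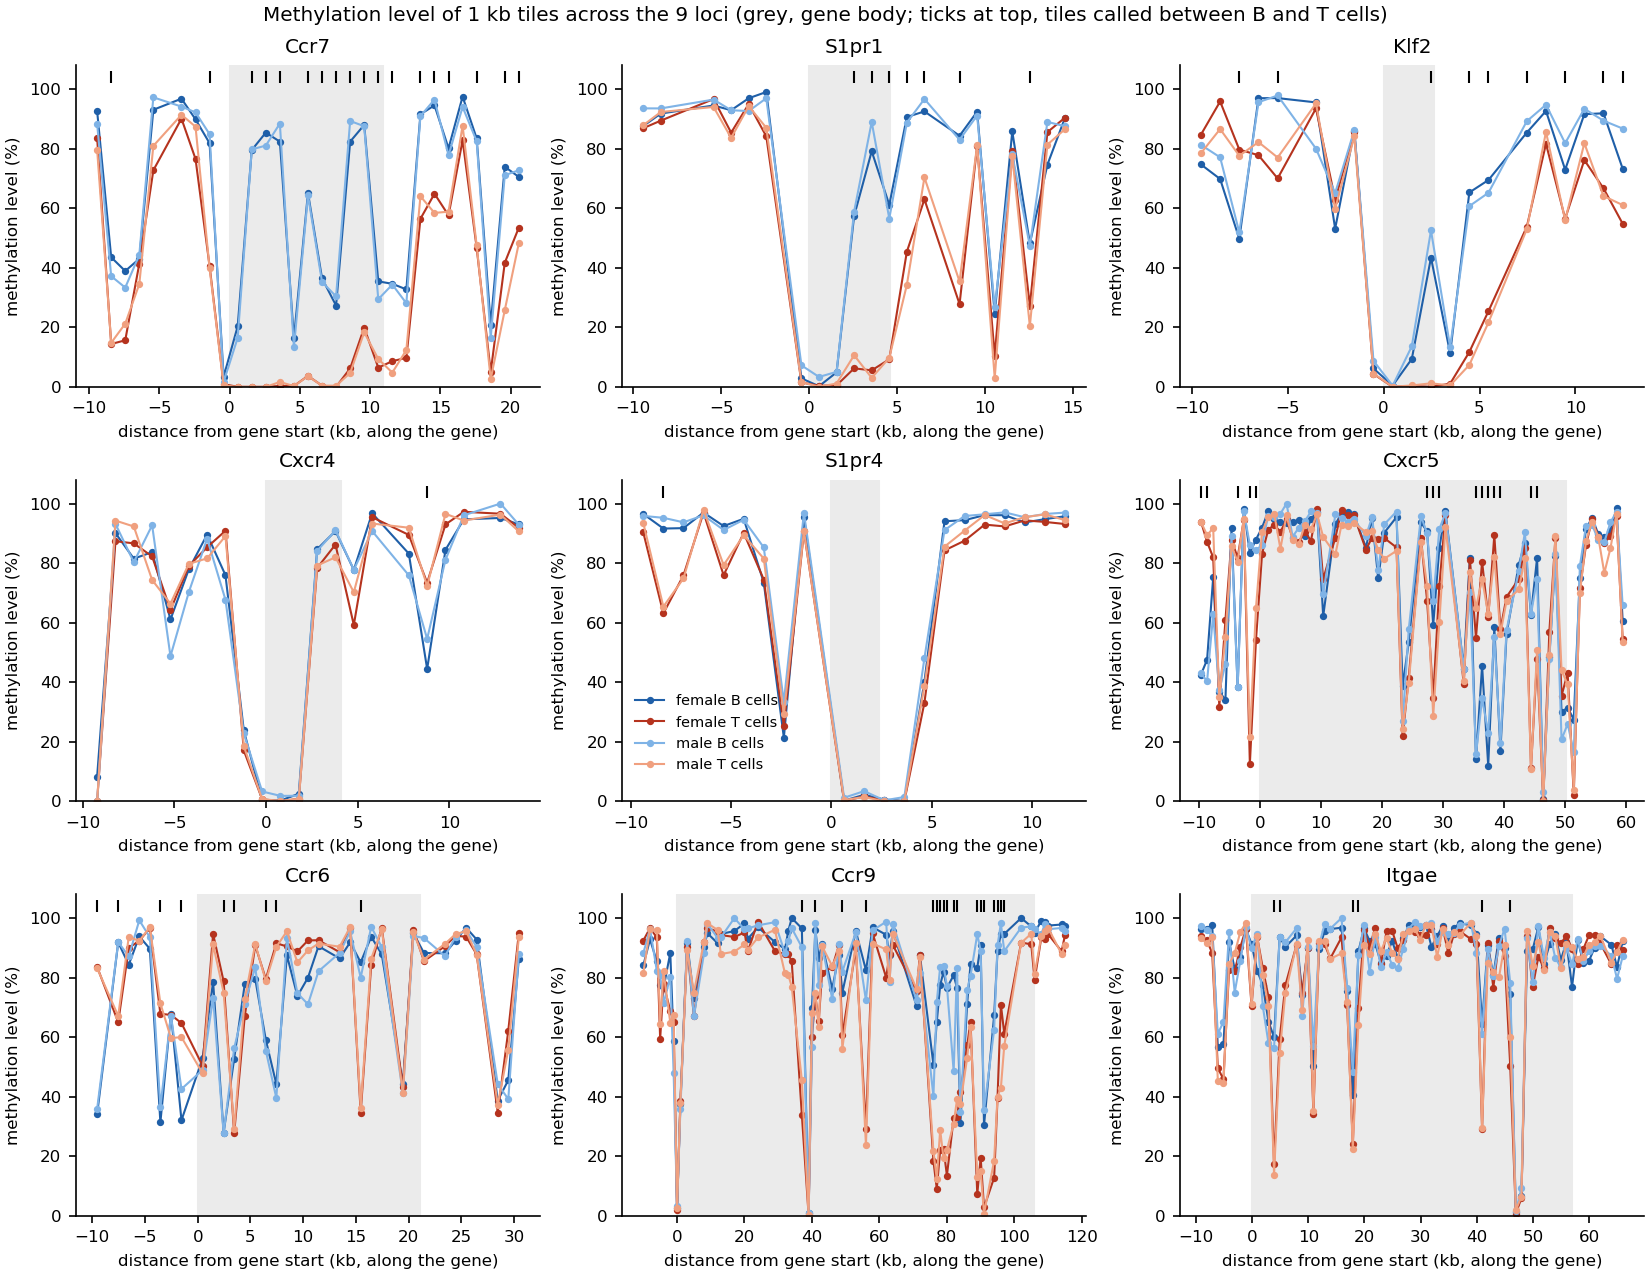
Methylation level (%) of 1 kb tiles in the 9 loci against distance from the gene start along the gene (kb), with 1 line per library, the gene body shaded and a tick for each tile called between B and T cells. T cells lie below B cells across the Ccr7 gene body, where B cells reach 89.3%, T cell levels stay low past the starts of S1pr1 and Klf2, and Cxcr4 and S1pr4 show nearly superimposed lines at their starts.

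S1pr1 had the same shape on a smaller scale. Its promoter (start at position 115715072, minus strand, 62 CpGs) was almost free of methylation in every library, at 1.44%, 0.868%, 5.08% and 0.722%, the male B cell library being the highest. The difference of 2.47 points passed the adjusted p (9.8e-05) but was far under 20 points. Females differed by 0.573 points and males by 4.36 points. Without the male B cell library it was 0.646 points (adjusted p = 0.47 in an edgeR fit without the sex term), and the adjusted p of such a fit was 0.46 when either T cell library was left out. Toward the end of the gene the cell types parted. The tile at 115711001, over the exon with coding and untranslated sequence, stood at 79.1%, 5.53%, 89.0% and 3.02% (difference 79.8 points, adjusted p = 2.5e-77), and the tile at 115712001 beside it stood at 57.4%, 6.21%, 58.9% and 10.6%. Past the end of the gene, the tile at 115706001 stood at 84.3%, 27.8%, 83.0% and 35.4% (difference 52.1 points, adjusted p = 6.0e-10). The tile at 115709001 there stood at 90.6%, 45.4%, 88.7% and 34.2% (difference 49.9 points, adjusted p = 5.4e-24). Of 6 gene body tiles 3 were called and of 9 downstream tiles 4, and none of 6 upstream tiles was.

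The unmethylated stretch at the S1pr1 start measured 3530 and 2793 bases in female and male B cells, and 6805 and 6877 bases in T cells. It ended at similar places upstream (552 to 1284 bases), and reached 2240 or 2245 bases into the gene in B cells and 5592 bases in T cells, which is past the end of the gene. Ended at 30%, it measured 2761 and 2694 bases in female and male B cells, and 3533 bases in female T cells, where it reached only 2780 bases into the gene, while in male T cells it was 6805 bases long. Over the whole locus the difference was 19.0 points, just under the limit, at 56.1% and 56.6% in B cells against 38.2% and 36.4% in T cells. With flanks of 2 kb the difference was 25.7 points and the locus was called.

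Klf2 has the most CpGs at its start, 150, and the promoter stood at 1.27% to 2.56% in the 4 libraries, with no difference that passed the test (1.01 points, adjusted p = 0.092). Of the 9 called tiles of the locus, 7 lay in the gene body or downstream and 2 upstream. The tile at 72321001, over the last exon and its untranslated part, stood at 43.4%, 0%, 52.5% and 1.18%, the 0% allowing up to 1.76%. Beyond the gene the tile at 72323001, which holds the printed stretch, stood at 65.3%, 11.7%, 60.7% and 7.35% (difference 53.5 points, adjusted p = 1.1e-26). At 72324001 the levels were 69.5%, 25.4%, 65.2% and 21.7%. Of 9 downstream tiles 6 were called, every one higher in B cells, and the unmethylated stretch from the start was 2035 and 1568 bases long in B cells and 5840 and 6079 bases long in T cells. Of the upstream tiles, 72313001 was higher in B cells (97.0%, 70.0%, 97.8% and 77.0%, difference 23.9 points, adjusted p = 2.0e-08), and 72311001 ran the other way, with 49.7% and 51.9% in B cells and 79.7% and 77.6% in T cells (difference -27.9 points, adjusted p = 6.5e-08).

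Cxcr4, the receptor for Cxcl12 of bone marrow and lymphoid stroma, showed almost no difference at its start or over the whole locus. Its promoter, with 99 CpGs, stood at 0.459%, 0.412%, 2.55% and 1.67%, and the B minus T difference of 0.463 points had an adjusted p = 0.49. The unmethylated stretch at the start was of nearly the same length in the cell types, 3694 bases in the female libraries and 3290 and 3302 bases in male B and male T cells. The locus stood at 46.3%, 44.4%, 47.1% and 44.1% (adjusted p = 0.22). Of 22 tiles 1 was called, at 128583001 downstream of the gene, with 44.4% and 54.5% in B cells and 73.4% and 72.3% in T cells (difference -23.4 points, adjusted p = 3.7e-04).

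S1pr4, a sphingosine 1-phosphate receptor expressed mainly in lymphoid tissue, also had 1 called tile. Its locus stood at 52.5%, 46.7%, 55.3% and 47.0%, a difference of 7.04 points that passed the adjusted p (6.6e-05) and not the 20-point limit, and that was 3.79 points when CpGs were averaged without weighting by reads. Its promoter of 36 CpGs stood at 5.08%, 2.85%, 6.27% and 3.10% (difference 2.69 points, adjusted p = 0.017). A stretch of low methylation in the summed reads of a cell type, a run of at least 4 CpGs with a smoothed level under 50%, measured 4589 bases in B cells and 4628 bases in T cells. It began inside the gene, short of the start at position 81500132, and ran past the end of the gene. It also held the start of the neighbouring gene Ncln at position 81496392, where the tile at 81496001 has 77 CpGs. Followed outward from the S1pr4 start itself, as at the other genes, the stretch had no length in 3 of the libraries and measured 4624 bases in female T cells, where it had no length when ended at 30%. The 1 called tile of 21 lay at 81508001 over an exon of the neighbouring gene Gna15, which encodes a G protein alpha subunit, at 91.6%, 63.1%, 95.2% and 65.4% (difference 29.2 points, adjusted p = 2.4e-19).

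The receptors of B follicles behaved differently from Ccr7, with low levels in B cells at some tiles and in T cells at others. Cxcr5 had 15 of 63 tiles called, 7 higher in B cells and 8 higher in T cells, and as a whole its locus did not differ (73.8%, 73.3%, 73.1% and 72.4%, adjusted p = 0.71). The GENCODE gene start at position 44561877 was methylated in every library, from 79.9% to 92.0%. Another start, at position 44556391 was at 91.0% to 93.2%. Further in, at the transcript start at position 44526421, the level within 1 kb was 39.1% and 33.1% in female and male B cells against 69.5% and 71.0% in T cells. The difference of -34.1 points (adjusted p = 8.7e-16) was called, as were 1.94% of 25661 transcript starts tested.

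Around that start the B cells were lower over a run of 5 called tiles in a row. The tile at 44526001, which holds the start, stood at 14.1%, 55.0%, 15.7% and 65.0%, and the tiles at 44524001 and 44522001 inside the gene stood at 12% and 17.1% in female B cells, 22.9% and 19.6% in male B cells, and between 56.3% and 62.8% in T cells. Upstream of the gene 3 tiles were also lower in B cells, the strongest at 44571001 with 42.6%, 94.0%, 43.0% and 93.8% (difference -51.1 points, adjusted p = 6.5e-52). T cells were the lower ones at 44563001, which holds the printed stretch, with 83.5%, 12.5%, 86.2% and 21.5% (difference 67.8 points, adjusted p = 1.1e-57). T cells were lower at 44517001 too, in an intron, with 62.7%, 11.3%, 62.8% and 10.8% (difference 51.7 points, adjusted p = 8.5e-19).

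Ccr6, the receptor for Ccl20, had 9 of 35 tiles called, 6 higher in T cells and 3 higher in B cells. Its promoter at the GENCODE start (position 8236043) has only 9 CpGs and stood at 46.3%, 38.6%, 41.1% and 40.4%, with an adjusted p = 0.61. The difference lay at a transcript start further in, position 8243811, where the level was 56.2%, 91.1%, 56.4% and 92.1% (difference -35.3 points, adjusted p = 4.2e-33). At the start before it, position 8242526, the difference was -18.7 points, under the limit. The tile at 8243001 stood at 44.2%, 91.5%, 39.6% and 90.3% (difference -49.1 points, adjusted p = 2.5e-39), and the tile at 8238001, in an intron, at 27.9%, 78.7%, 27.7% and 74.9% (difference -49.0 points, adjusted p = 9.0e-33). A tile at 8226001 upstream was close to these, with 34.1% and 35.9% in B cells and 83.6% and 83.2% in T cells. In the opposite direction the tile at 8251001 stood at 85.1%, 34.7%, 80.0% and 36.2% (difference 47.1 points, adjusted p = 2.1e-20). Over the locus the difference was -6.44 points (adjusted p = 1.5e-06).

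Ccr9 had 18 of 65 tiles called and all were higher in B cells. Its GENCODE start at position 123678439 lies in a CpG-rich stretch that also holds the start of Slc6a20a, a transporter gene on the other strand, and it was unmethylated in every library (6.74%, 4.97%, 6.61% and 6.22%, 93 CpGs). At the transcript start at position 123767211 the level was 89.5%, 21.8%, 94.5% and 25.3%. The difference of 68.5 points (adjusted p = 1.5e-67) ranked 21 by size among the 25661 transcript starts. A further start at position 123774540 stood at 95.5%, 56.8%, 96.6% and 40.5% (difference 47.4 points, adjusted p = 3.3e-34).

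The unmethylated stretch at position 123767211 had no length in B cells and measured 6379 bases in female and 7637 bases in male T cells. It was not free of methylation, and in male T cells the 7637 bases held 17.4% methylated reads. When the stretch was ended at 30% in place of 50% methylated reads, it measured 671 and 2802 bases in female and male T cells. The tile at 123767001 stood at 83.3%, 7.24%, 94.6% and 13.1% (difference 78.8 points, adjusted p = 3.2e-53), and the tile at 123768001 at 90.9%, 19.6%, 89.1% and 15.2%. Another run of low T cell levels lay before this start, from 123754001 to 123761001, where 7 tiles were called. In that run the tile at 123757001 stood at 82.0%, 22.5%, 83.9% and 19.3% (difference 62.1 points, adjusted p = 1.6e-33). At 123715001, which overlaps an exon of Lztfl1, the level was 96.6%, 33.9%, 90.2% and 45.5%. A CpG-rich tile at 123717001, which holds the start of Lztfl1, was below 1% in every library and did not differ. The antisense transcript AC165425.1 overlaps the end of Ccr9, and methylation of the DNA cannot be assigned to either of them.

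Itgae had 6 of 72 tiles called, all in its gene body and all higher in B cells. Its promoter was methylated in every library, with B cells at 89.0% (85.8 to 91.5) in females and 92.3% (88.9 to 94.8) in males, against T cells at 79.8% (75.8 to 83.2) and 82.0% (77.5 to 85.8), a difference of 9.76 points (adjusted p = 1.7e-04). The largest difference was at 73094001 in an intron, with 60%, 17.4%, 56.3% and 13.9% (difference 42.5 points, adjusted p = 9.3e-23), followed by 73095001 beside it with 93.8%, 59.4%, 93.8% and 54.6%. A tile at 73131001 over an exon stood at 64.3%, 29.2%, 61.1% and 29.5%. A CpG-rich stretch of low methylation inside the gene, 1858 bases long in B cells and 2097 bases in T cells, holds the start of Haspin, a kinase gene on the other strand.

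**Figure D4:**
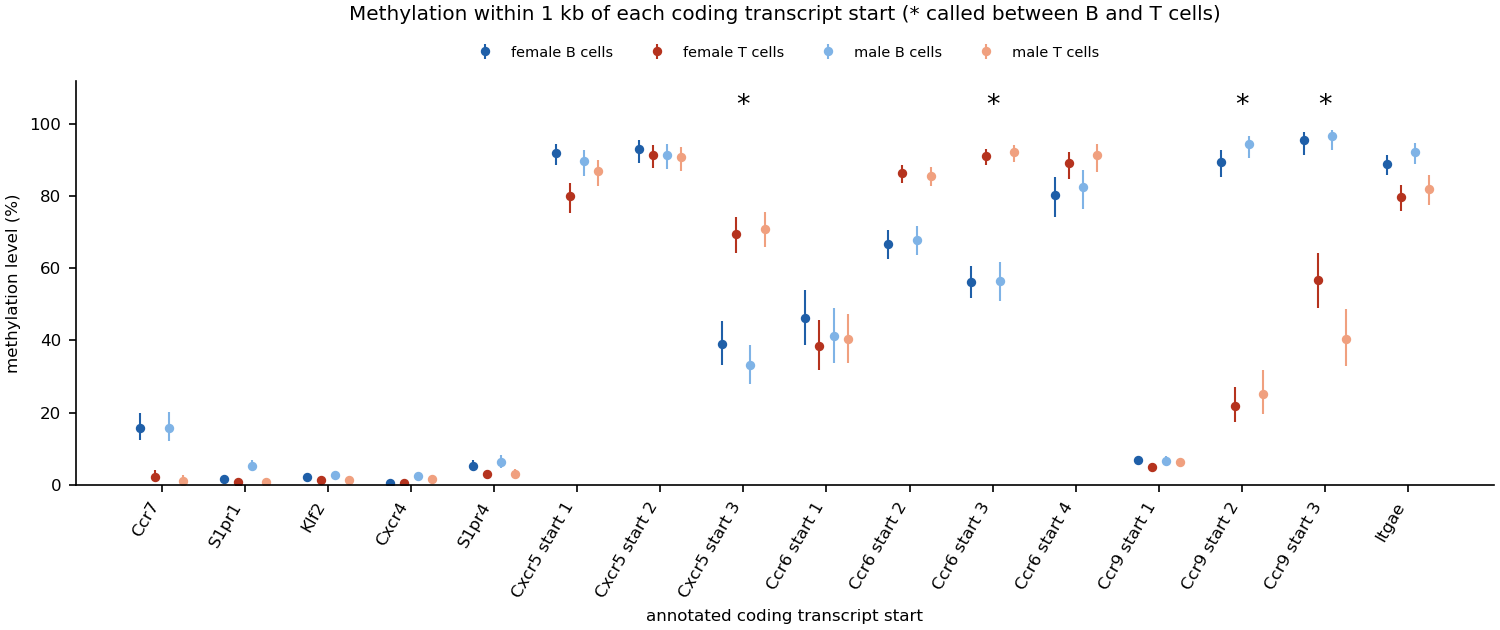
Methylation level (%) within 1 kb of each annotated coding transcript start of the 9 genes, with 1 point per library and 95% Wilson intervals of the reads, and an asterisk at starts called between B and T cells. Called starts are 1 of Cxcr5 and 1 of Ccr6, both lower in B cells, and 2 of Ccr9, both lower in T cells.

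At the GENCODE gene starts none of the 9 promoters was called by edgeR, where 1.37% of 20501 promoters were, and 5 of the 9 passed the adjusted p alone, where 19.8% of promoters did. At an unadjusted p under 0.05, 6 of the 9 passed, a share not counted over all promoters. A limma call needed 20 points as well, and the largest difference of the 9 was 14.1 points at Ccr7, so limma could call none. The starts were also divided at 36 CpGs, a limit set after the values of the 9 were seen. Of the 9 promoters, 5 held 36 or more CpGs and all 5 were below 10% in every library, and none of the 4 with fewer CpGs was. Over the genome, 56.4% of promoters with 36 or more CpGs were below 10% in every library and 1.41% of those with fewer. Of all promoters with fewer than 36 CpGs 3.56% were called between B and T cells, and of the others 0.257%.

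Starts with levels most like the called ones were looked up over all transcript starts by the root mean square distance of the 4 levels. The start of Ccr9 at position 123767211 was closest to Cxcr6 (3.02 points), Map4 (3.51 points) and Ccr8 (3.95 points), of which Cxcr6 and Ccr8 encode chemokine receptors. Cxcr6 starts close by on the same chromosome, at position 123806475, and the part of this nearness in the match was not tested. That of Cxcr5 was closest to H2-Eb2 (3.11 points), Nt5c2 and Zfp385a, and that of Ccr6 to Ergic1 (1.49 points), Irf8 and Tnfaip8. The start of Ccr9 at position 123774540 was closest to Fam240a (6.16 points), Il6st and Tnfrsf4.

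Single CpGs were counted as well. CpGs at 50% or more in both B cell libraries and under 20% in both T cell libraries numbered 92 of 424 (21.7%) in Ccr7, 28 of 275 (10.2%) in S1pr1, 45 of 762 (5.91%) in Ccr9 and 14 of 365 (3.84%) in Klf2. Cxcr5 held 12 (1.43%), Ccr6 held 7 (1.48%) and Itgae held 8 (0.907%). Over the genome they were 0.409% of CpGs. CpGs with the reverse pattern were 22 of 841 (2.62%) in Cxcr5, 14 of 472 (2.97%) in Ccr6 and 6 of 354 (1.69%) in Cxcr4, with 2 in Klf2 and 1 in S1pr1, against 0.179% over the genome, and there were none in Ccr7, S1pr4, Ccr9 and Itgae. High B cell and low T cell levels were met at no CpG of Cxcr4 and at 1 of 473 in S1pr4.

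Stretches of low methylation, meaning runs of at least 4 CpGs with a smoothed level under 50% in the summed reads of a cell type, covered 8747 bases of B cells and 19811 bases of T cells at Ccr7, 5505 and 23926 bases at Ccr9, and 3894 and 10457 bases at S1pr1. At Ccr6 the order was reversed, with 7507 bases for B against 3521 for T cells, and at Cxcr5 the cell types were close, with 11971 and 11403 bases. Stretches that touched a locus were counted at full length. Ccr6 held 5 stretches met only in B cells and 1 met only in T cells. Of the 5, 1 of 1337 bases (8224709 to 8226045) lay almost wholly before the locus, which begins at 8226043. Ccr9 held none met only in B cells and 6 met only in T cells. Over the genome 13.5% of stretches were met only in B cells, 23.2% only in T cells and 63.2% in both.

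Sex had no called effect at these loci. No tile of the 350 was called between females and males, where 0.0864% of all tiles were, and none passed the adjusted p of edgeR or was called by limma. A limma call needed 20 points as well. At an unadjusted p under 0.05, 29 of the 350 passed, against 78461 of all 1530528 tiles. The Cxcr4 promoter was the 1 of the 9 promoters with an adjusted p under 0.05 for sex, as were 3.31% of all promoters, at 0.459% and 0.412% in females against 2.55% and 1.67% in males. That is a difference of -1.67 points, female minus male (adjusted p = 1.0e-04). In none of the 350 tiles did the B minus T difference pass the adjusted p for a difference between the sexes by edgeR. Of all tiles 130 passed it. At an unadjusted p under 0.05, 19 of the 350 passed, against 66782 of all tiles. A call needed 20 points in the mean of female B and male T levels minus the mean of female T and male B levels. A gap of 20 points between the sexes in B minus T falls short of that. By edgeR 0.000849% of all tiles were called, and limma called none of the 350.

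Other genes of the homing pathway were taken as a list of 30 names for lymphocyte receptors, adhesion molecules and their signalling, and 9 ligands or partners made mostly by stroma and epithelium. Of the 29 promoters tested for lymphocyte genes 6 were called, and all 6 were higher in B cells, where 1.37% of all promoters were called in either direction. Ccr8, a receptor of skin-homing and regulatory T cells, stood at 91.3%, 17.6%, 92.8% and 19.0% (difference 73.7 points, adjusted p = 1.9e-108). Cxcr6, the receptor for Cxcl16, stood at 93.3%, 26.3%, 95.9% and 25.9%, and Ccr2, the receptor for Ccl2, at 88.5%, 47.7%, 94.0% and 49.1%. Gpr183, which senses oxysterols and positions B cells at the edge of follicles, stood at 37.8%, 2.77%, 37.6% and 6.20%. The intestinal homing genes Itgb7 and Gpr15 differed by 23.2 and 24.5 points.

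Of 1039 tiles in the loci of the lymphocyte genes 196 (18.9%) were called, 179 of them higher in B cells. The ligands and partners had 9 of 230 tiles called (3.91%), near the 3.17% of all tiles, and none of the 8 promoters tested was called by edgeR, 1 of them having an unadjusted p under 0.05 and 0 being called by limma. Cxcl12, the ligand of Cxcr4, was at 3.40% to 4.48% in the 4 libraries, and Cxcl13, the ligand of Cxcr5, at 78.1% to 81.9%.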

How the data were processed

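The assay was oxidative bisulfite sequencing of whole genomes, in 8 samples forming 4 groups of 2, each group with 1 file. The submitters' processing notes name Trim Galore, FastQC, Bismark 0.13.1 and the build mm10. How the 2 samples of a group entered its file is not given in the sources used here. Each row that the authors deposited holds a CpG, its methylation level as a fraction rounded up to 3 decimals, and its read count of at least 5. No column was left unused. The number of methylated reads was restored by multiplying level and reads and rounding down, which returned the deposited fraction for 100% of values in each library.

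Reads of CpGs listed in all 4 libraries were summed over 1 kb tiles, promoters (windows reaching 1 kb to each side of the GENCODE M21 gene start) and loci (gene body with 10 kb on either side) of the whole genome, and regions with at least 5 CpGs and 20 reads per library were tested. Methylated and unmethylated reads were compared in edgeR 4.0.16 (R 4.3.3) by its quasi-likelihood test, with terms for library, methylation, cell type and sex. For a dependence of the B minus T difference on sex, a crossed term took the place of the sex term. With 4 libraries and 3 terms of methylation, 1 residual degree of freedom was left, and the spread was shared over all regions (common dispersion 0.00804 for tiles, from 20000 tiles). Since each group is 1 library, p-values measure the spread between these libraries, which may be technical. Adjustment (Benjamini-Hochberg) ran over all regions of a kind. In 50000 simulated tiles the test called 79 of 100 tiles changed by 30 points, 100 of 100 changed by 60 points and 0 of 49800 unchanged ones. The simulation assumed a small spread between libraries, no sex effect, and 1 underlying level in all 4 libraries for unchanged tiles. Its 0 therefore follows from these settings and the 20-point limit, and does not measure false calls in the real libraries. Intervals are 95% Wilson intervals of the reads, and upper limits for a level of 0 are 3 reads of the total. Both cover counting error only, and reads carry no molecular identifiers. A read that covers several CpGs counts at each of them. The intervals and limits treat these counts as independent, so they can be too narrow.

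The members, gene lists and groups were chosen with earlier results of these data known. Tiles were named by size of the difference, up to 3 called tiles per locus, and the further tiles named were chosen after their values were seen. From the homing list the genes with called promoters were named, and ligands of members besides, chosen after their values were seen. Windows at every coding transcript start (starts within 1 kb joined) were added after the GENCODE gene starts of Cxcr5, Ccr6 and Ccr9 were seen to lie far from other starts. Alternatives were limma 3.58.1 on logit levels (prior of 1 read), CpGs with 10 or more reads, CpGs above 3 times the median reads left out, other tile, promoter and flank sizes, and leaving out each library. The fits without a library had no sex term, which left 1 residual degree of freedom, and the lone library of a cell type was assumed to vary like the others. A gene of the homing list is not reported here. RNA was not analysed here.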

Additional observations from a re-analysis of the deposited data

How the results depend on the processing

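Of the 84 called tiles, 66 stayed called under every alternative that could be computed, and no tile changed sign. The limma fit kept 69 of the 84, and the restriction to CpGs with 10 or more reads kept 54 of the 56 tiles it could test. Leaving out a library gave 83 to 87 called tiles in the 9 loci, 0 promoters and 1 locus, and of the 84 tiles 77 to 80 stayed called. Tiles of 500 bases gave 92 called tiles and tiles shifted by 500 bases gave 83. Neither the shared tiles nor the share called over all such tiles was counted. Adjusted p alone gave 153 tiles, 5 promoters and 7 loci, since it drops the minimum difference. Over the genome it gave 142409 of 1530528 tiles, 19.8% of promoters and 39.8% of loci. Windows at every coding transcript start, added after seeing the data, gave 4 called starts in place of 0 promoters, where 1.94% of all 25661 starts were called. Flanks of 2 kb gave 2 called loci, Ccr7 and S1pr1, in place of 1, and the share called over all loci with such flanks was not counted. Promoter and locus differences were compared 162 times, and in 157 nothing that was checked changed. For the unweighted mean over CpGs only the sign was checked, and for limma only the call, since limma kept the same differences. The S1pr1 locus with 2 kb flanks became called, and 4 changed sign, all of them differences that had not been called. Unweighted levels of the Ccr7 promoter were 23.7%, 4.74%, 22.3% and 1.74%, which brings its difference closer to the 20-point limit. The Cxcr4 promoter, at 0.463 points, ranged from -0.582 to 1.51 points when a library was left out, and was -0.167 and -0.582 points without the female T and the male B library. With an unweighted mean over CpGs the Cxcr4 locus went from 2.46 to -1.13 points and the Cxcr5 locus from 0.577 to -0.610 points. That mean also moved by over 1.5 times the Klf2 locus (15.8 to 9.38 points), the S1pr4 locus (7.04 to 3.79 points) and the promoters of Klf2 (1.01 to 0.235 points), S1pr4 (2.69 to 1.73 points) and Ccr9 (1.07 to 0.394 points). The unmethylated stretch at the gene start was longer in both T cell libraries than in both B cell libraries at 4 members when it ended at 50% (Ccr7, S1pr1, Klf2 and Itgae, the last with 1 base in T cells and 0 in B cells) and at 4 when it ended at 30% (Ccr7, S1pr1, Klf2 and Ccr9, the last with 1079 bases in T cells and 1023 in B cells). At the S1pr1 start the female T cell stretch went from 6805 to 3533 bases under the 30% limit, and at the Ccr9 transcript start at position 123767211 the T cell stretches went from 6379 and 7637 to 671 and 2802 bases. Samples could not be paired by origin across groups, because the labels number them 1 to 8 with no number shared between groups. Sex entered the main fits as a term. Depth was lowest in the male B cell library, with a median of 14 reads per CpG, and CpGs under 5 reads are not listed.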

Other observations

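Outside the 9 genes, several genes of the homing list had many called tiles and no called promoter. The promoters of Foxo1, Itgb2, Itgal and Selplg were under 20 points but passed the adjusted p of edgeR. So did 16 of the 29 promoters of the list and 19.8% of all promoters. Foxo1, a transcription factor that acts upstream of Klf2 and Ccr7 in T cells, had 39 of 94 tiles called, 37 of them higher in B cells, with a largest difference of 64.3 points, and its promoter of 197 CpGs was below 1% in every library. Itgb2, which encodes the beta chain of the integrin LFA-1, had 15 of 54 tiles called, all higher in B cells, the largest by 91.8 points. Its partner chain gene Itgal had 8 of 53 called, with a largest difference of 77.8 points. Selplg, which encodes the selectin ligand PSGL-1, had 12 of 34 called, 9 of them higher in B cells. Ccr1, Ccr3, Ccr10, Cxcr3, Xcr1 and Rgs1 had no called tile, of 7, 8, 22, 11, 15 and 12 tested. With so few tiles, and 3.17% of all tiles called, counts of 0 do not set these loci apart.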
